A study of Mus musculus with 4 samples.

Results

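Genes that white and brown fat cells use to take up, bind and store fatty acids were followed through the developing urogenital sinus (UGS) of male mouse embryos. The set held 8 genes, *Cebpa*, *Lpl*, *Cd36*, *Fabp4*, *Dgat2*, *Plin1*, *Adipoq* and *Ucp1*, chosen by symbol from the 25819 genes listed in the deposited expression table, and each matched 1 entry. RNA-Seq had been made from whole UGS at E16.5 and E18.5, from *Tbx18*Gfp/Gfp embryos, homozygous for a knock-in of green fluorescent protein that serves as a null allele of the transcription factor gene *Tbx18*, and from wild type littermates. All mice were of a B6C3-F1 hybrid background and had no other treatment named in the labels. RNA of 3 embryos that shared genotype and stage was pooled into each of the 4 libraries. There was therefore 1 library per group, no test between groups was possible, and no error between animals can be given.

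A fat cell forms when a committed mesenchymal precursor switches on the transcription factors C/EBPα, encoded by *Cebpa*, and PPARγ, which then hold each other and the genes of lipid storage in an active state. Fatty acids reach the cell after lipoprotein lipase frees them from circulating triglycerides, enter with the help of CD36, travel in the cytoplasm bound to FABP4 and are built into triglyceride by DGAT2, to be stored in a droplet coated by perilipin 1. Mature white fat cells also secrete adiponectin, the product of *Adipoq*, and brown fat cells carry UCP1, which lets mitochondria release energy as heat. Several of these genes are also used outside fat, *Fabp4* and *Cd36* in capillary endothelium and macrophages, and *Lpl* in muscle and macrophages.

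The set split into 5 genes with at least 1 FPKM in each of the 4 libraries and 3 genes below 1 FPKM in each of them. FPKM scales the reads of a gene to the length of its transcript and to the mapped reads of the library, so it can be compared between genes of unequal length. *Fabp4* was the most abundant member in every library, at 20.3 to 98.4 FPKM. *Lpl*, *Dgat2*, *Cd36* and *Cebpa* lay between 1.35 and 11.2 FPKM. The genes that mark a mature fat cell most closely, *Adipoq* and *Plin1*, and the brown fat gene *Ucp1* were at or near 0, so that the label of fat cell genes was not borne out by its defining markers, and the expressed part of the set is called here by its leading genes, *Fabp4* and *Lpl*. In RNA from whole tissue, fewer cells of a type and less RNA per cell cannot be told apart.

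The libraries held an estimated 28800000 to 63500000 mapped reads, the fewest in wild type UGS at E18.5. That library stood apart from the other 3: between 2657 and 2965 expressed genes lay at least 2-fold from it in each of the other libraries, whereas the other 3 differed among themselves in 244 to 371 genes. Its distance rose with the GC content of the transcript, so the members are shown with that property beside them. *Tbx18* itself stood at 3.47 FPKM (wild type) and 2.50 FPKM (mutant) on E16.5, and at 3.16 and 2.93 FPKM on E18.5, values that do not separate RNA of the targeted locus from RNA of an intact one.

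The first 120 coding bases of *Cebpa* and *Fabp4* show how far apart the members lie in base composition, with G and C in capitals, 5′ to 3′ on the coding strand, from the GENCODE transcripts used for length and GC content. In GRCm38 the *Cebpa* bases lie at chr7:35119419-35119538 on the plus strand, in the only exon. Those of *Fabp4* lie on the minus strand, 73 bases in exon 1 of 4 at chr3:10208439-10208511 and 47 bases in exon 2 at chr3:10206076-10206122.
Cebpa: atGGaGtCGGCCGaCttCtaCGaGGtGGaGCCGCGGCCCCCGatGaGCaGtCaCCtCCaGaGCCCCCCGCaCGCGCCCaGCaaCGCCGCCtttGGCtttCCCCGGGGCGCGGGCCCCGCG
Fabp4: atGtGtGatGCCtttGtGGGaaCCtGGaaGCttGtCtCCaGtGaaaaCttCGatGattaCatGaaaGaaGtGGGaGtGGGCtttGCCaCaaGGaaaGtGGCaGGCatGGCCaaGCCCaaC
Of the 120 bases, 89 were G or C in *Cebpa* and 60 in *Fabp4*, and their whole coding sequences, of 1077 and 396 bases, were 71.9% and 48.5%. Over whole transcripts *Cebpa* had 62.6%, *Plin1* 61.3%, *Dgat2* 56.3%, *Adipoq* 47.5%, *Ucp1* 47.1%, *Lpl* 43.5%, *Fabp4* 40.3% and *Cd36* 37.7%.

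*Cebpa*, on chromosome 7 from 35904312 to 35906947 in the deposited coordinates, whose genome build is not given in the sources used here, encodes the transcription factor C/EBPα, which also acts in liver and myeloid cells. At E16.5 its level was 4.85 FPKM in the wild type library and 4.25 FPKM in the mutant one, and at E18.5 it was 1.35 and 3.86 FPKM, from about 744, 567, 94 and 485 reads. Wild type UGS at E18.5 was low and the other 3 libraries lay close to each other. An antisense gene overlaps the *Cebpa* locus in the annotation. The study's methods give default options for the alignment and name no strand setting for the counting. Whether reads of the antisense gene were counted for *Cebpa* therefore cannot be told.

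*Lpl*, on chromosome 8 from 71404454 to 71430831, encodes the lipase that releases fatty acids from lipoproteins at the vessel wall. In wild type UGS it had 5.83 FPKM on E16.5 and 11.2 FPKM on E18.5, and in mutant UGS 6.50 and 6.41 FPKM. Here too wild type UGS at E18.5 was the library that differed, but as the highest. *Gpihbp1*, chosen after its values were seen, encodes the endothelial protein that carries this lipase, and its level in wild type UGS was 12.2 FPKM on E16.5 and 15.9 FPKM on E18.5, against 15.2 and 18.1 FPKM in the mutant.

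*Cd36*, on chromosome 5 from 17287508 to 17394777, encodes a surface receptor for long-chain fatty acids. At E16.5 the wild type library held 3.83 FPKM and the mutant library 2.94 FPKM, and at E18.5 they held 4.66 and 5.15 FPKM. Both E18.5 libraries were above both E16.5 libraries, over a narrow range.

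*Fabp4*, on chromosome 3 from 10204342 to 10208576, encodes the cytoplasmic carrier of fatty acids known as aP2. In wild type UGS it stood at 32.3 FPKM on E16.5 and 94.7 FPKM on E18.5, and in mutant UGS at 20.3 and 98.4 FPKM on the same days, from about 1410, 1878, 774 and 3519 reads. Both E18.5 libraries were high, and mutant UGS at E16.5 was the lowest of the 4. By its mean over the libraries it ranked above 96.2% of all genes in the table, against 56.0% to 67.8% for the other 4 expressed members.

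*Dgat2*, on chromosome 7 from 106302173 to 106331223, encodes an enzyme of the last step of triglyceride synthesis. Wild type UGS held 6.29 FPKM on E16.5 and 3.21 FPKM on E18.5, and mutant UGS 4.70 and 6.72 FPKM. As with *Cebpa*, wild type UGS at E18.5 was the lowest.

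**Figure D1:**
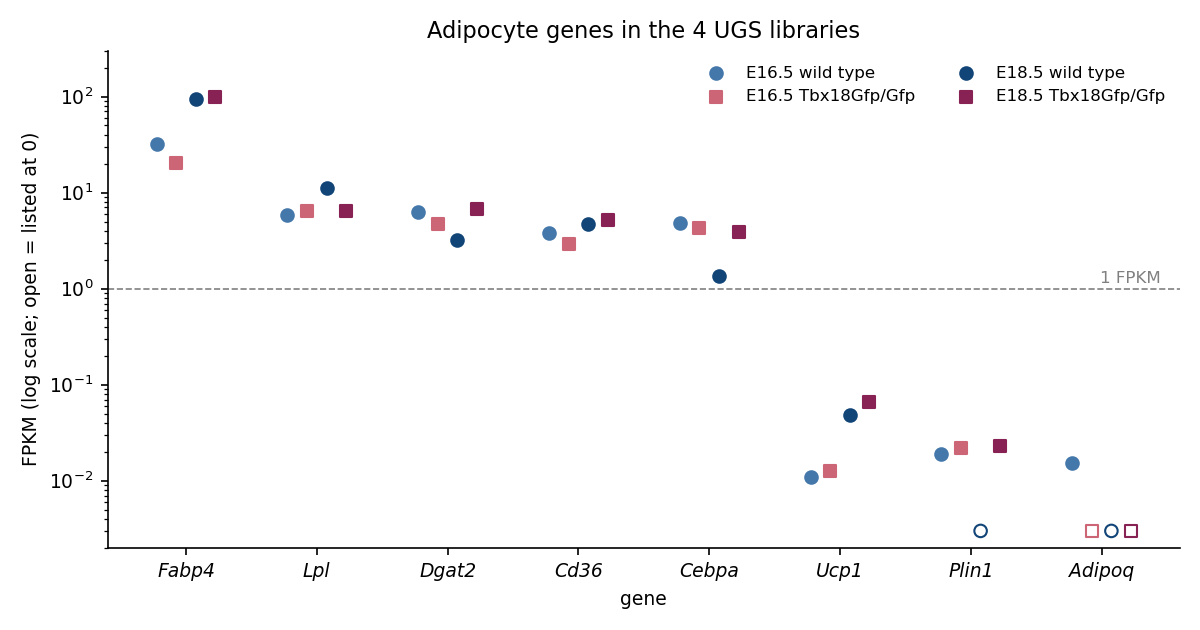
FPKM of the 8 members in the 4 libraries, on a log axis, with 1 point per pooled library and open symbols, drawn at the foot, for genes listed at 0. *Fabp4* lies at 20.3 FPKM or more in every library, 4 members lie between 1.35 and 11.2 FPKM, and *Plin1*, *Adipoq* and *Ucp1* lie at 0.0667 FPKM or less.

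*Plin1*, on chromosome 7 from 86866050 to 86877662, encodes the droplet coat protein of mature fat cells. About 2 reads were found in wild type and 2 in mutant UGS at E16.5, 0 in wild type and 2 in mutant UGS at E18.5, at most 0.0232 FPKM. *Adipoq*, on chromosome 16 from 23146609 to 23158041, had about 1 read in wild type UGS at E16.5 and 0 in the other 3 libraries. A count of 0 allows a true level of up to 3 reads, which for *Adipoq* corresponds to 0.0501 FPKM in mutant UGS at E16.5, 0.0960 FPKM in wild type and 0.0532 FPKM in mutant UGS at E18.5.

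*Ucp1*, on chromosome 8 from 85814247 to 85822355, had about 1 read in wild type and 1 in mutant UGS at E16.5, 2 in wild type and 5 in mutant UGS at E18.5, or 0.0109, 0.0126, 0.0482 and 0.0667 FPKM. The highest value was above the 0.0404 FPKM that 3 reads are worth in that library, and the other 3 were below the level of 3 reads. The ratio of mutant to wild type at E18.5 was 1.39 with a counting interval of 0.227 to 14.5, so that no difference was detectable at this depth. Neither *Plin1* nor *Adipoq* had enough reads for a ratio to be read.

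Other genes tied to mature fat cells, picked after their values were seen, were mixed in level. The droplet protein gene *Cidec* was listed at 0 in all 4 libraries, and the hormone genes *Lep* and *Retn* and the complement gene *Cfd* had at most 1 read in any library. *Cidea*, a droplet gene of brown fat that epithelia also express, had 1.70 to 2.17 FPKM, and *Prdm16*, a regulator of brown fat fate, had 1.09 to 1.27 FPKM. *Pparg*, the partner of *Cebpa* in fat cell formation and also a gene of urothelium, was at 3.71 FPKM (wild type) and 3.24 FPKM (mutant) on E16.5, and at 7.64 and 6.10 FPKM on E18.5.

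At E16.5, asking how loss of *Tbx18* was accompanied by change in these genes, no member reached a 2-fold difference in *Tbx18*Gfp/Gfp UGS. Among all 14761 genes that passed 1 FPKM in at least 1 of the libraries compared, 0.481% were at least 2-fold higher and 1.17% at least 2-fold lower in the mutant. *Fabp4* was 1.59 times lower in mutant UGS, the only member past 1.5-fold, a size that 4.15% of all genes passed in either direction. Its ratio of 0.630 had a 95% counting interval of 0.577 to 0.688, an exact interval on the estimated reads that covers counting error only and not the spread between embryos.

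The other 4 members had smaller ratios at E16.5. Mutant over wild type was 0.749 for *Dgat2*, with a counting interval of 0.670 to 0.836, and 0.767 for *Cd36*, with an interval of 0.679 to 0.864. It was 0.876 for *Cebpa*, from 0.783 to 0.977, and 1.12 for *Lpl*, from 1.04 to 1.20. Thus 4 of the 5 measurable members had a ratio below 1, with a median log2 ratio of -0.38 against 0.01 over all genes, and *Lpl* was above 1. When expressed genes were grouped by transcript GC content into 10 bins, the bin medians at this stage were all between 0.01 and 0.02 in log2 ratio. Whether the members' own ratios varied with GC content at E16.5 was not tested.

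Markers of other cell types were read beside the members at E16.5. All 15 endothelial markers had a ratio above 1, with a median log2 ratio of 0.21 and summed levels of 170 FPKM in wild type and 197 FPKM in mutant UGS, and 13 of 14 macrophage markers did, with sums of 91.9 and 112 FPKM. *Fabp4* and *Cd36*, genes that such cells also use, thus stood on the other side of 1. Skeletal muscle markers were at least 2-fold lower in 12 of 14 cases, with sums of 1020 and 441 FPKM, and smooth muscle markers in 3 of 10, with sums of 1101 and 584 FPKM. Hepatocyte markers were at least 2-fold higher in all 7 that passed the filter, although their sums were only 4.31 and 20.7 FPKM. Most of them reached 1 FPKM only in the mutant library, so the filter itself favoured genes high there and the count has little meaning. Of 12 urothelial and epidermal markers 4 had a ratio above 1, with a median log2 ratio of -0.38, the same as that of the members, and sums of 699 and 578 FPKM. Erythroid markers had a ratio above 1 in 6 of 7 cases, with sums of 17928 and 28872 FPKM. The part of these cell types in the members' ratios was not tested.

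**Figure D2:**
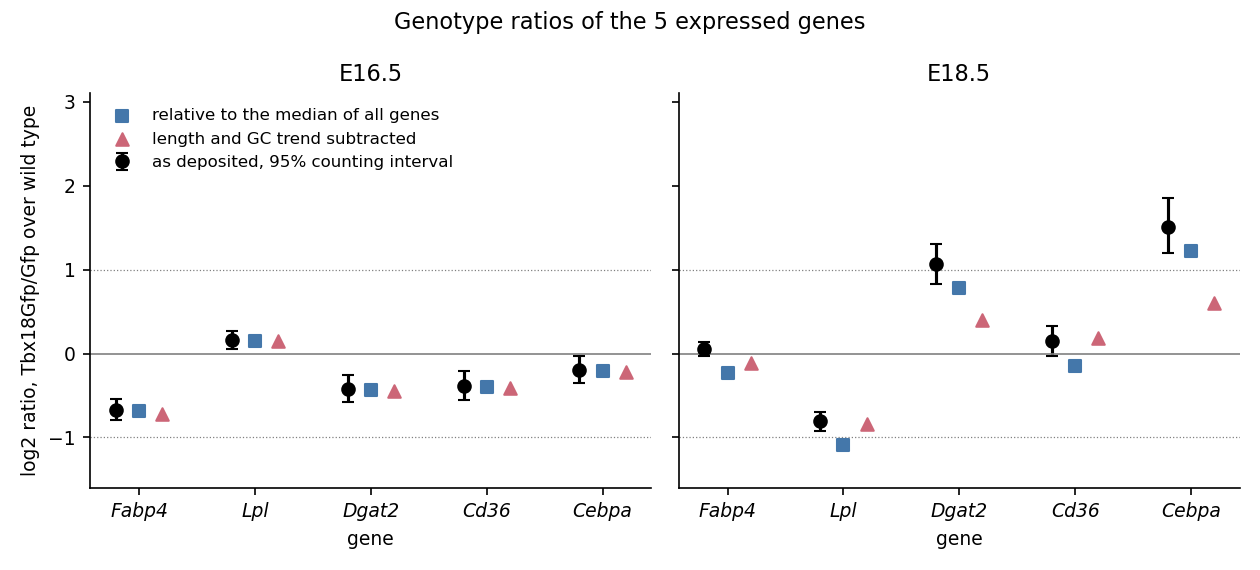
The log2 ratio of mutant to wild type FPKM for the 5 measurable members at E16.5 and at E18.5, as deposited (circles, bars for 95% counting intervals), relative to the median of all genes (squares) and after removal of the length and GC trend (triangles), with dotted lines at 2-fold. As deposited, at E16.5 *Fabp4* lies lowest at -0.67, and at E18.5 *Cebpa* lies highest at 1.51 and *Lpl* lowest at -0.81.

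At E18.5 *Cebpa* and *Dgat2* were past 2-fold on the higher side in mutant UGS and no member was at least 2-fold lower. At this stage 15.1% of the 14733 genes tested were at least 2-fold higher and 2.89% at least 2-fold lower, so a gene past 2-fold was common. *Cebpa* was 2.86 times higher, with a counting interval of 2.29 to 3.60, and *Dgat2* 2.09 times higher, with an interval of 1.78 to 2.47. *Lpl* had a ratio of 0.572, or 1.75 times lower, with an interval of 0.529 to 0.619, and it was the third member past 1.5-fold, which 40.8% of all genes passed. For *Cd36* and *Fabp4* the ratios were 1.11, from 0.977 to 1.26, and 1.04, from 0.981 to 1.10, both with intervals that include 1. The median log2 ratio of the 5 members was 0.15, against 0.29 over all genes.

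Which members passed 2-fold at E18.5 depended on the scaling of the libraries. With the libraries scaled to equal sums, with ratios centred on their median, or with upper quartile scaling, *Cebpa* was again at least 2-fold higher, at log2 ratios of 1.09, 1.23 and 1.26, but the other member past 2-fold was *Lpl*, at log2 ratios of -1.23, -1.09 and -1.06, and *Dgat2* fell short at 0.64, 0.78 and 0.81. The same scalings moved the share of higher genes among all those past 2-fold from 84.0% to 43.7%, 60.1% and 63.9%. *Cd36* and *Fabp4* were below 0 under all 3 scalings, at -0.28, -0.14 and -0.11 for *Cd36* and -0.37, -0.23 and -0.20 for *Fabp4*.

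The order of the members at E18.5 followed their GC content in part. *Cebpa* fell in the bin of highest GC content, where the median log2 ratio of all genes was 0.81, and *Dgat2* in the bin below it, with a median of 0.67. *Lpl* fell in a bin with a median of 0.04, and *Cd36* and *Fabp4* in the lowest bin, with a median of -0.05. Once the dependence of the ratio on length and GC content was removed by a fitted trend, *Cebpa* had a log2 ratio of 0.60 and *Dgat2* of 0.40, so that no member was past 2-fold, whereas *Lpl* had -0.84. Trend subtraction left 40.7% of the genes past 2-fold on the higher side.

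**Figure D3:**
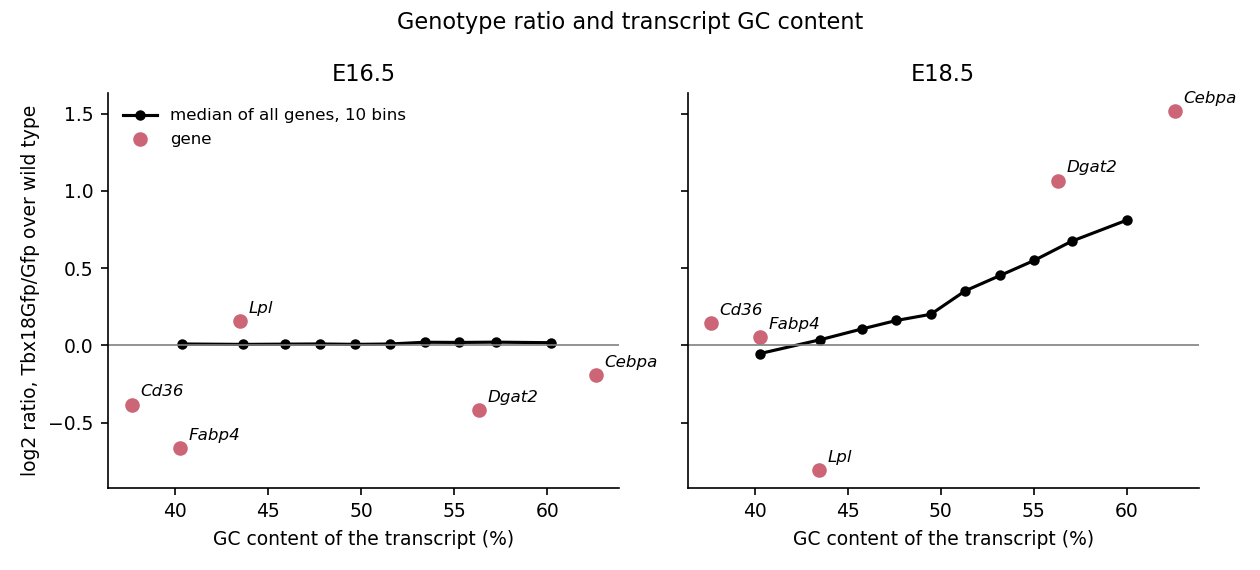
The median log2 ratio of mutant to wild type FPKM in 10 bins of transcript GC content, in percent, at each stage, as lines, with the 5 measurable members as points. The E16.5 line is flat between 0.01 and 0.02, whereas the E18.5 line runs from -0.05 in the lowest bin to 0.81 in the highest, with *Lpl* at -0.81 far below it and *Cebpa* at 1.51 above it.

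With wild type UGS at E16.5 as the control in place of the library that stood apart, an alternative chosen after seeing the data that mixes stage with genotype, the mutant at E18.5 had ratios of 0.796 for *Cebpa*, 1.10 for *Lpl*, 1.07 for *Dgat2* and 1.34 for *Cd36*. *Fabp4* alone was past 2-fold there, at 3.04 times. The differences of *Cebpa*, *Dgat2* and *Lpl* at E18.5 thus rested on 1 library, wild type UGS at E18.5.

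Markers of other cell types at E18.5 are set beside the 15.1% of all genes that were at least 2-fold higher in the mutant. Of 15 endothelial markers 5 were at least 2-fold higher, with sums of 157 FPKM in wild type and 185 FPKM in mutant UGS, and of 14 macrophage markers 4, with sums of 84.9 and 114 FPKM, but relative to the median of all genes the median log2 ratios of these lists were only 0.16 and 0.21. Smooth muscle markers had 4 of 10 at least 2-fold higher, with sums of 1298 and 3533 FPKM, and erythroid markers 6 of 7, with sums of 5861 and 28493 FPKM. Skeletal muscle markers went both ways, with 3 of 14 at least 2-fold higher, 7 of 14 with a ratio above 1 and a median log2 ratio of -0.01, and their sums of 558 and 1017 FPKM differed mainly through *Acta1*, at 110 and 455 FPKM. Urothelial and epidermal markers had 0 of 12 past 2-fold, with sums of 703 and 883 FPKM, and hepatocyte markers 3 of 4 at least 2-fold lower, with sums of 12.1 and 5.74 FPKM. The hepatocyte genes that were lower reached 1 FPKM only in the wild type library. The part of all these markers in the members' ratios was not tested.

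From E16.5 to E18.5 *Fabp4* was higher in both genotypes. In wild type UGS it was 2.93 times higher, with a counting interval of 2.74 to 3.14, and in *Tbx18*Gfp/Gfp UGS 4.83 times higher, from 4.47 to 5.23. Of 14497 genes tested in both genotypes, 30 were at least 2-fold higher in both, or 0.207%, which is 7.5% of the genes at least 2-fold higher in wild type and 15.2% of those at least 2-fold higher in mutant UGS. With the smaller *Fabp4* ratio, that of 2.93 in wild type UGS, as the limit, 7 genes or 0.0483% were that much higher in both. *Fabp4* is among them by construction, and the count was made only on FPKM as deposited.

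In wild type UGS *Cebpa* was at least 2-fold lower at E18.5, by 3.59 times, with a ratio of 0.279 and a counting interval of 0.222 to 0.345. Among 14807 genes, 2.7% were at least 2-fold higher and 16.8% at least 2-fold lower between these libraries, and 42.7% were past 1.5-fold. *Lpl* had a ratio of 1.92, from 1.78 to 2.08, *Dgat2* of 0.511, from 0.434 to 0.599, and *Cd36* of 1.22, from 1.07 to 1.38. The median log2 ratio of the 5 members was 0.28 against -0.33 for all genes. After subtraction of the trend on length and GC content *Cebpa* had -0.80, short of 2-fold, and *Fabp4* 1.62. With equal sums, centring or upper quartile scaling *Lpl* was past 2-fold as well, at 1.24, 1.27 and 1.22. Of all the genes past 2-fold here, 13.9% were higher, and this share was 35.4% with equal sums, 39.8% when centred, 34.2% with upper quartile scaling and 59.7% after trend subtraction.

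In *Tbx18*Gfp/Gfp UGS *Fabp4* was the only member past 2-fold between the stages, where 1.35% of 14713 genes were at least 2-fold higher and 0.571% at least 2-fold lower. *Cd36* was 1.75 times higher, from 1.56 to 1.98, the other member past 1.5-fold, a size that 4.68% of all genes passed. *Dgat2* had a ratio of 1.43, from 1.28 to 1.60. For *Cebpa* and *Lpl* the ratios were 0.909, from 0.803 to 1.03, and 0.986, from 0.914 to 1.06, with intervals that include 1. The 5 members had a median log2 ratio of 0.51, against -0.06 over all genes.

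Markers of other cell types were read beside *Fabp4* over the 4 libraries. Relative to wild type UGS at E16.5, the median log2 level of 15 endothelial markers was 0.21 in mutant UGS at E16.5, -0.18 in wild type and 0.10 in mutant UGS at E18.5, against -0.67, 1.55 and 1.61 for *Fabp4*. For 13 macrophage markers the medians were 0.29, -0.18 and 0.24, and for 13 skeletal muscle markers -1.21, -0.80 and -0.77. A set of 9 smooth muscle markers, lower at E16.5 in the mutant and higher in it at E18.5, had -0.94, 0.25 and 1.35, and *Pparg*, chosen after its values were seen, had -0.19, 1.04 and 0.72. The 12 urothelial and epidermal markers had medians of -0.38, 0.05 and 0.41, and several uroplakins, which coat the urothelium, were lower than in that library in mutant UGS at E16.5 and higher in both E18.5 libraries, as *Fabp4* was. *Upk1a* had -0.56, 0.37 and 0.58, *Upk1b* -0.50, 0.49 and 0.44, and *Upk2*, chosen after its values were seen, -0.50, 0.67 and 0.77. The list did not follow this course as a whole. Of its 12 genes, 4 were higher in mutant UGS at E16.5, among them *Upk3b* at 0.09. In wild type UGS at E18.5, 8 were higher, *Upk3a* only at 0.03, while *Krt5*, *Krt14* and *Krt8* were at -0.80, -1.33 and -0.61. These 5 genes were also chosen after their values were seen. Their part in the course of *Fabp4* was not tested. No formal comparison of these courses was possible with 1 library per group.

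**Figure D4:**
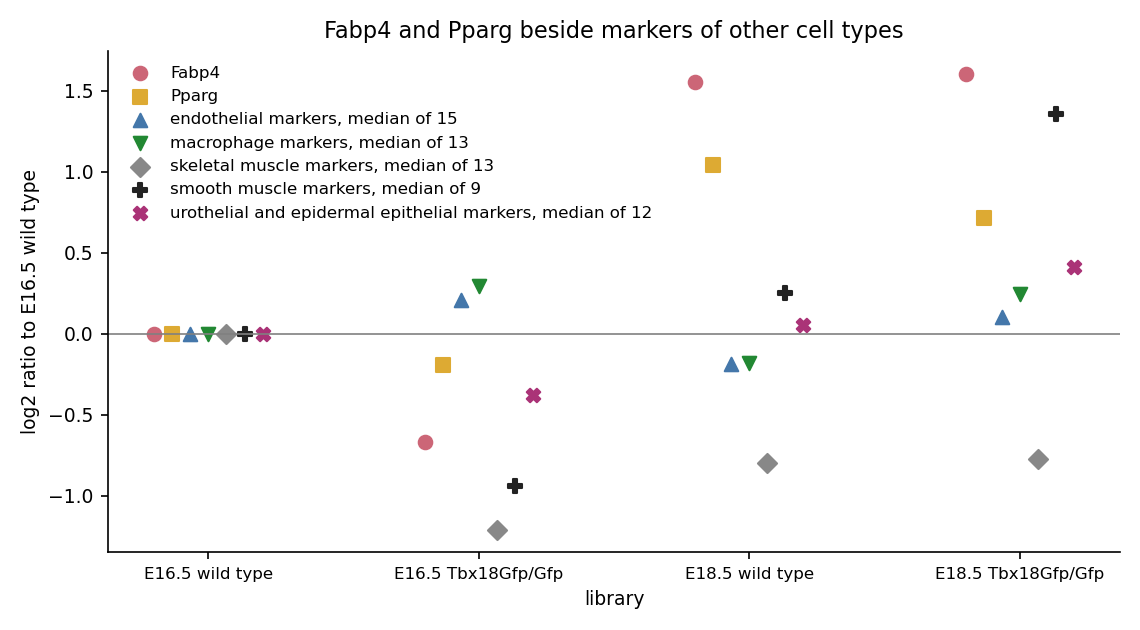
The log2 level of *Fabp4* and *Pparg*, and the median log2 level of lists of endothelial, macrophage, skeletal muscle, smooth muscle, and urothelial and epidermal markers, in each library relative to wild type UGS at E16.5. *Fabp4* stands at 1.55 and 1.61 in the wild type and mutant E18.5 libraries, and *Pparg* at 1.04 and 0.72. The smooth muscle median stands at 0.25 and 1.35 in the same libraries. The endothelial and macrophage medians stay between -0.18 and 0.29 and the urothelial and epidermal median reaches 0.41.

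By likeness of course over the 4 libraries, as the root mean square difference of centred log2 levels, the genes nearest to *Fabp4* were *1110032A04Rik* at 0.154, *Car3*, a carbonic anhydrase abundant in fat and muscle, at 0.225, and *Vsig2*, a surface protein of the immunoglobulin family, at 0.252. No gene of the 14990 compared lay within 0.1 of *Fabp4*. The other members had many near neighbours, 115 genes within 0.1 for *Cebpa*, 164 for *Lpl*, 44 for *Dgat2* and 22 for *Cd36*. *Aatk* was nearest to *Cebpa* at 0.0108, *Ifitm2* to *Lpl* at 0.00973, *Ppp1r3b*, a glycogen-targeting phosphatase subunit, to *Dgat2* at 0.0238, and *Entpd1*, an ectonucleotidase of endothelium and leukocytes, to *Cd36* at 0.0412. With 4 libraries such likeness is only a description.

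The wider programme of fat cells was read from 10 lists of 148 genes other than the members, covering transcription factors, lipid droplets, triglyceride synthesis, lipolysis, fatty acid synthesis and uptake, secreted proteins, insulin response, brown fat and progenitors. At E16.5, of the 117 listed genes that were expressed, 0 were at least 2-fold higher and 3, or 2.56%, at least 2-fold lower in mutant UGS. These were *Fitm1*, a droplet-forming protein of muscle, with a log2 ratio of -1.19, *Cox8b*, a respiratory subunit of brown fat and muscle, at -1.44, and *Lhx8*, a homeobox gene, at -1.38, all named after their values were seen. *Cox8b* rested on only about 28 reads in wild type and 9 in mutant UGS, against 214 and 81 for *Fitm1* and 317 and 106 for *Lhx8*. *Cox8b* and *Fitm1*, like *Lhx8*, were lower as the skeletal muscle markers given above were, and the part of skeletal muscle was not tested. No other gene of the lists that reached 1 FPKM in either library was past 2-fold at E16.5. Of 11 fatty acid synthesis genes 10 had a ratio below 1, with a median log2 ratio of -0.14. Among 14309 genes that reached 1 FPKM in wild type and mutant UGS alike at E16.5, 54.6% had a ratio above 1.

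At E18.5, 19 of 118 listed genes, or 16.1%, were at least 2-fold higher in mutant UGS and 3, or 2.54%, at least 2-fold lower, shares near those of all genes. Centring left 11 higher and 6 lower, and trend subtraction 7 higher and 4 lower. Among triglyceride synthesis enzymes 3 of 8 were higher. *Agpat2* was at a log2 ratio of 1.72, *Lpin3* at 1.22 and *Dgat1*, the other enzyme of the last step, at 1.20. Trend subtraction brought these 3 to 0.89, 0.65 and 0.49, short of 2-fold. Of them only *Agpat2* was past 2-fold when centred, at 1.43. All 8 enzymes had a ratio above 1, but this was common at E18.5. Among 13757 genes that reached 1 FPKM in wild type and mutant UGS alike, 69.3% had a ratio above 1. Adipogenic transcription factors went both ways. On one side were *Cebpb* at 1.07, *Cebpd* at 1.21, *Srebf1* at 1.31 and *Klf4* at 1.17, named after their values were seen. On the other were *Klf5* at -2.19 and *Creb3l1*, at 64.4 FPKM in wild type against 32.1 FPKM in mutant UGS. With the trend subtracted *Cebpb* was at -0.10, *Cebpd*, *Srebf1* and *Klf4* at 0.89, 0.68 and 0.65, and *Klf5* and *Creb3l1* at -2.38 and -1.79. Secreted proteins had 4 of 8 higher, among them *Rarres2*, the chemerin gene, at 1.37, or 0.76 with the trend subtracted. Of the lipolysis and fatty acid synthesis lists no gene that reached 1 FPKM in either library was past 2-fold.

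The genes with the highest levels in these lists included several that other cells also use. *Cd24a*, a surface glycoprotein of progenitors and epithelia, had 179 to 291 FPKM, *Itgb1*, an integrin subunit, 149 to 203 FPKM, *Nnat*, neuronatin, 133 to 194 FPKM, and *Cav1*, a caveolar protein, 92.5 to 231 FPKM. *Dlk1*, a preadipocyte factor of embryonic mesenchyme, had 106, 116, 122 and 123 FPKM in wild type and mutant UGS at E16.5 and E18.5, and *Plin3* and *Plin2*, droplet coats used in most tissues, 15.0 to 30.5 and 9.30 to 17.3 FPKM. *Scd2*, a fatty acid desaturase, had 119 to 164 FPKM and *Fabp5*, a relative of *Fabp4* in epithelium, 48.3 to 87.5 FPKM. *Plin2*, *Plin3* and *Fabp5* were lowest, and *Klf5*, at 65.2 FPKM against 14.3 to 23.1 FPKM, was highest, in wild type UGS at E18.5.

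**Figure D5:**
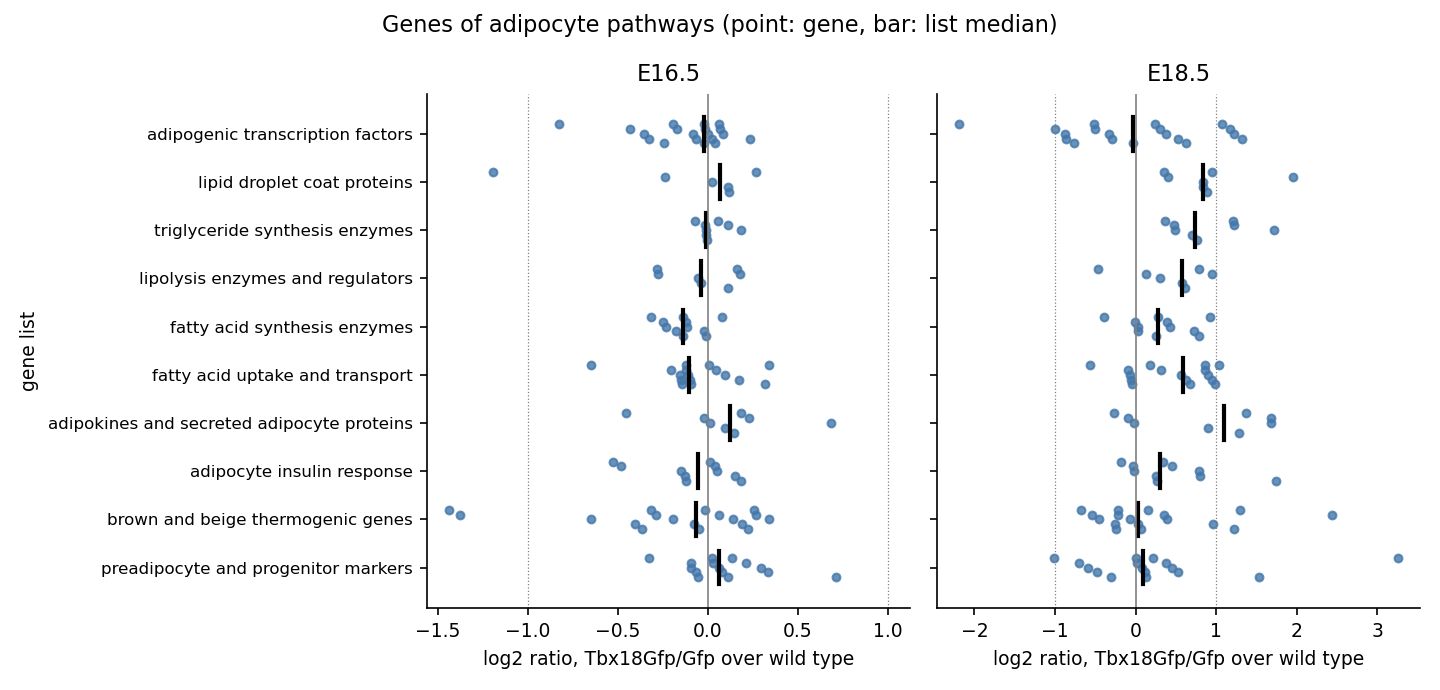
The median log2 ratio of mutant to wild type FPKM for 10 lists of fat cell genes at E16.5 and E18.5, as bars, with the expressed genes of each list as points and dotted lines at 2-fold. At E16.5 the medians lie between -0.14 and 0.12, and at E18.5 between -0.03 and 1.09, where the median of all genes was 0.29.

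From E16.5 to E18.5, 3 of 117 listed genes, or 2.56%, were at least 2-fold higher and 12, or 10.3%, at least 2-fold lower in wild type UGS, against 2.7% and 16.8% of all genes. With the trend subtracted 6 were higher and 4 lower, and when centred 3 and 6. In *Tbx18*Gfp/Gfp UGS 7 of 119, or 5.88%, were higher and 0 lower, against 1.35% and 0.571% of all genes. In the mutant these included *Plin4*, a perilipin of fat and muscle named after its values were seen, at a log2 ratio of 3.55, *Cav1* at 1.32, and *Rarres2* at 1.08. *Plin4* rose there from about 58 to 636 reads, while 8 of 10 smooth muscle markers were at least 2-fold higher between the same libraries, and the part of smooth muscle was not tested. In wild type UGS *Pparg* was higher, at 1.04, and *Agpat2* and *Dgat1* were among those lower as deposited, all chosen after their values were seen.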

How the data were processed

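RNA-Seq reads, single-end from a stranded kit, were aligned with TopHat at its default options and quantified with Cufflinks. The submitters' processing notes name CASAVA 1.8.2, Trimmomatic 0.30, TopHat2 2.1.0 and Cufflinks 2.2.1. The genome build is not given in the sources used here. What the authors deposited is FPKM, as estimated by Cufflinks, and not counts. Depth was estimated from 17 to 28 olfactory receptor genes per library whose FPKM was that of 1 read, with transcript length reduced by 208 bases, and reads per gene were computed from it. Ratios were formed without a pseudocount among genes reaching 1 FPKM in at least 1 of the 2 libraries, with exact 95% intervals from the estimated reads, which cover counting error only. The ratio, centring and trend steps and the depth estimate were tested on simulated data, and the other steps were not.

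Alternatives were equal library sums, median centring, upper quartile scaling (75th percentile), a lowess trend (span 0.3) on length and GC content subtracted, pseudocounts of 0.1 and 1, no filter, at least 5 FPKM in either library, and 1.5-fold. Length and GC content came from GENCODE transcripts, matched by symbol for 23078 of 25819 genes. The members and lists were chosen with earlier results of these data known. Genes named by rule were all members, the 3 most abundant of each list, genes past 2-fold in the same direction at both stages, and the 3 nearest in course to each expressed member. Any other gene of the lists was chosen after its values were seen. Of the listed genes 4 had no entry by symbol. Computation was in Python 3.11.15 (pandas 2.3.3, numpy 2.4.6, statsmodels 0.14.6, scipy 1.17.1), with figures by matplotlib 3.10.9.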

Additional observations from a re-analysis of the deposited data

Results flagged for a closer look

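Each of the 5 measurable members had a mutant to wild type ratio on one side of 1 at E16.5 and on the other side at E18.5. The log2 ratio at E18.5 minus that at E16.5 was 1.71 for *Cebpa*, from -0.19 to 1.51, and 1.48 for *Dgat2*, from -0.42 to 1.07. It was 0.72 for *Fabp4*, from -0.67 to 0.05, 0.53 for *Cd36*, from -0.38 to 0.15, and -0.96 for *Lpl*, from 0.16 to -0.81. These differences were not tested, since each genotype had 1 pooled library per stage. For *Fabp4* and *Cd36* the E18.5 ratio had a counting interval that included 1 and was below 0 on the log2 scale under 3 scalings of the libraries, so that the opposite sides do not hold there.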

How the results depend on the processing

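No paired analysis was possible because each genotype and stage had 1 library and the labels carry no replicate numbers. Leaving out a replicate was not possible for the same reason. Of the 125 values of the members' log2 ratios under alternatives, 87 stayed within the counting interval, and 13 changed sign. Only 1 of these 13 was past 2-fold as deposited, *Cebpa* at E18.5, from 1.51 to -0.33 with wild type UGS at E16.5 as the control, an alternative chosen after seeing the data. *Lpl* at E18.5, short of 2-fold, went from -0.81 to 0.14 with the same control. The number of members past 2-fold between genotypes at E16.5 was 0, and 1 at 1.5-fold. At E18.5 it was 2, but 0 after trend subtraction, and 1 with a pseudocount of 1, with at least 5 FPKM in either library, or with wild type UGS at E16.5 as the control. Between stages in wild type UGS it was 2, but 1 after trend subtraction or with at least 5 FPKM, and 4 at 1.5-fold. Without a filter it was 3 in wild type UGS, where *Ucp1* entered on about 1 and 2 reads. In mutant UGS it was 1, and 2 without a filter, where *Ucp1* entered on 1 and 5 reads, or at 1.5-fold. With scaling by equal sums, median or upper quartile the count at E18.5 stayed at 2 with *Lpl* in place of *Dgat2*, and in wild type UGS *Lpl* was added. The cause was not tested. Counting intervals carry no spread between embryos, the depth of wild type UGS at E18.5 was the lowest, and *Plin1*, *Adipoq* and *Ucp1* had at most 5 reads in any library.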
